A study of Saccharomyces cerevisiae with 55 samples.

Results

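This comparison set yeast histone H4 double mutants that had lost lysine 16 against double mutants that had kept it. The number of substituted lysines was the same on both sides. K5R/K16R, K8R/K16R and K12R/K16R formed the side with K16R, and K5R/K8R, K5R/K12R and K8R/K12R the side without it. The mutants were taken by their array titles, and each mutant had equal weight. In all, 22 of the 55 arrays of the series belonged to these 6 mutants, 12 with K16R and 10 without.

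The series measured RNA of budding yeast (Saccharomyces cerevisiae) on 2-colour expression arrays, with a strain in which arginine replaced 1 or more of lysines 5, 8, 12 and 16 of histone H4 in one channel and a parental H4 strain in the other. Values are log2 ratios after each array was centred on its median, and values above 0 likely stand for more RNA in the mutant than in its parent. That direction was taken from the parental strain being the first channel of every array, since the sources used here do not give the dyes or the direction. If the ratio ran the other way, higher and lower would exchange throughout. With K16R there were 6 strains: MDY461 and MDY478 (K5R/K16R), MDY463 and MDY480 (K8R/K16R), and MDY464 and MDY481 (K12R/K16R). Without K16R there were 5: MDY459 and MDY476 (K5R/K8R), MDY460 and MDY477 (K5R/K12R), and MDY479 alone for K8R/K12R. MDY459, MDY460, MDY461, MDY463 and MDY464 were hybridised against the parental strain MDY453 and the other 6 strains against MDY470. Thus 7 of 12 arrays with K16R and 3 of 10 without it used MDY453, and K8R/K12R was measured against MDY470 alone. Every double with K16R carried 1 of K5R, K8R and K12R, and every double without it carried 2 of them, so the loss of lysine 16 cannot be told apart from keeping another lysine. The sources used here do not give mating type, growth conditions or the way the mutant histone genes were carried, and RNA levels cannot check a point mutation. Nothing says that all arrays came from separate cultures, so p-values measure the spread between these samples, part of which may be technical.

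Lysines of the H4 tail are acetylated in active chromatin, and arginine keeps their positive charge but cannot be acetylated, so the substitution is used to imitate the unacetylated residue. Unacetylated lysine 16 is the best known of the sites bound by the Sir proteins, which silence the spare mating type cassettes HML and HMR and the chromosome ends. When the alpha cassette is expressed, an a cell makes both the a1 and the alpha2 regulator. Together they turn off the genes that only haploid cells use, and alpha2 also turns off the genes that only a cells use.

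The arrays of the 6 mutants resembled each other more within a side than across sides. Across genes, the median correlation was 0.725 between arrays of the same mutant (30 pairs), 0.731 between different mutants of the same side (81 pairs) and 0.505 across sides (120 pairs). These values only describe the arrays, because genes are not independent replicates. The array of strain MDY481 (K12R/K16R, replicate 2) stood apart. Its SD over genes was 0.399, against 0.190 to 0.317 in the other 21 arrays, and its correlation with the mean of the other arrays of its mutant was 0.551, against 0.629 to 0.927. Counts of calls that moved by over 1.5 times without that array are given both ways.

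A small group of genes had large differences between the sides, and most called genes had small ones. Of 5540 genes, 553 (9.98%) differed between the sides at an adjusted p under 0.05 in limma, 171 higher (3.09%) and 382 lower (6.9%) with K16R. At an unadjusted p under 0.05 in limma, 496 of these 5540 genes were higher and 716 lower. Within the MDY453 arrays alone it was 83 and 323 of 5535, and within the MDY470 arrays 973 and 1050 of 5509. Counts at an unadjusted p in the lists below are to be read against these. At least 2-fold differences were found for 28 genes that were lower and for 1 that was higher, the cell wall mannoprotein gene HPF1. The sign was the same in all 9 pairs of a double with K16R and a double without it for 522 of the 553. The calls used the same mutant means, so this count only describes the called genes. In 97 of 5461 genes with a value in every array (1.78%) the 12 arrays with K16R and the 10 without did not overlap, 87 lower and 10 higher, and all 97 were among the called genes. Without centring the split was 232 higher and 321 lower. Without the array of MDY481, 742 genes were called, 236 higher and 506 lower.

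Against their parental strains, both sides changed at a similar number of genes. The doubles with K16R had 2740 genes called (49.5%, 1373 higher and 1367 lower) and the doubles without it 2846 (51.4%, 1421 higher and 1425 lower). Among the 382 genes lower with K16R, 106 had fallen in the doubles with K16R alone, 83 on both sides, and 47 had fallen with K16R and risen without it. Another 88 had risen in the doubles without K16R alone and 56 on both sides, and 2 were called on neither side. Among the 171 higher genes, 46 had risen with K16R alone, 69 had fallen without K16R alone, 27 had fallen on both sides, 14 had risen on both and 13 had moved in opposite directions, with 2 called on neither. These splits depend on the threshold on each side, and both sides share their parental references.

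**Figure D1:**
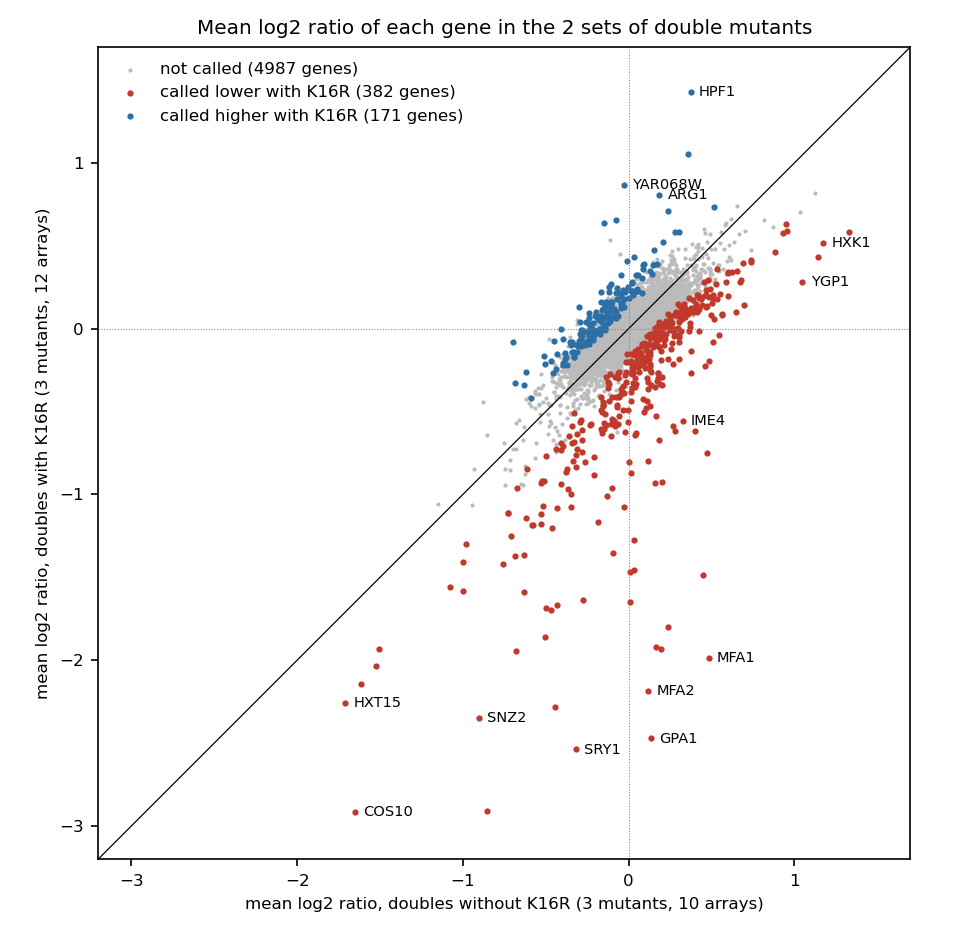
Mean log2 ratio of each of the 5540 genes in the doubles without K16R (x axis) and with K16R (y axis), each a mean of 3 mutants. Called genes are red (382 lower with K16R) or blue (171 higher), the line marks equal values, and the 28 genes at least 2-fold lower with K16R include GPA1, at 0.14 on the x axis and -2.47 on the y axis.

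Genes that mark a yeast cell of mating type a were lower with K16R without exception. All 7 measured a-specific genes were called lower, against 6.9% of all genes, with a median difference of -2.08. Their median log2 ratio was -1.92 in the doubles with K16R and 0.16 in those without. MFA1 and MFA2 encode the a-factor pheromone. MFA1 had a lowest, median and highest log2 ratio of -2.70, -1.86 and -1.17 over the 12 arrays with K16R, and of -0.09, 0.59 and 0.74 over the 10 without. All arrays with K16R lay below all arrays without it, and the difference was -2.47 ± 0.15 (SE), or 5.53-fold (adjusted p = 1.1e-18). For MFA2 the lowest, median and highest were -2.73, -2.36 and -1.47 with K16R, and -0.34, 0.18 and 0.34 in the other doubles. The ranges were again apart, with a difference of -2.31 ± 0.12. In RNA from whole cultures, fewer cells expressing a gene and less of its RNA per cell cannot be told apart.

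The other a-specific genes serve the receipt of the partner's pheromone and the contact between cells. STE2, the receptor for alpha-factor, lay at -2.38, -2.16 and -0.99 (lowest, median, highest) with K16R and at 0.03, 0.21 and 0.34 without. The highest of the 12 arrays was that of MDY481, and it too was below every array without K16R. The difference was -2.12 ± 0.09, or 4.36-fold (adjusted p = 2.18e-24). BAR1, the protease that degrades alpha-factor, fell by 2.08 ± 0.10 relative to the doubles without K16R, AGA2, an agglutinin subunit with a value in 11 of the 12 arrays with K16R, fell by 1.94 ± 0.11, and STE6, the exporter of a-factor, fell by 1.66 ± 0.11. ASG7, a regulator of the G protein beta subunit, had the smallest difference of the list (-1.48 ± 0.09). None of these 7 genes had overlapping arrays between the sides. Within the arrays against MDY453 alone 7 were called lower, and within those against MDY470 alone 6 were, while AGA2 had too few values there to be fitted. The shares of all genes called lower in these sets were 1.26% and 13.1%.

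Haploid-specific genes, which both mating types express and a/alpha diploids turn off, were lower as well. All 13 on the list were called lower, against 6.9% of all genes, and all are named here. Their median difference was -1.09, with a range from -2.61 to -0.27. GPA1, the alpha subunit of the pheromone G protein, had the lowest difference of all 5540 genes. Its lowest, median and highest log2 ratios were -3.04, -2.62 and -1.80 with K16R and -0.02, 0.14 and 0.21 without, so that the doubles without K16R stood close to their parents. The difference was -2.61 ± 0.08, or 6.10-fold (adjusted p = 1.98e-30). The beta and gamma subunits, STE4 and STE18, differed less (-1.09 ± 0.08 and -0.88 ± 0.11), as did the scaffold STE5 (-0.91 ± 0.06).

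Further down the pathway, FUS3 is the MAP kinase of mating and FAR1 the cyclin-dependent kinase inhibitor that stops the cycle. FAR1 lay between -2.10 and -1.18 with K16R (median -1.93) and up to 0.41 without (median 0.24, lowest 0.00), a difference of -2.04 ± 0.08. FUS3 lay between -2.63 and -1.98 with K16R (median -2.27). Unlike GPA1 and FAR1 it was also below the parental level without K16R, between -0.60 and -0.25 (median -0.44), and its difference was -1.84 ± 0.12. SST2, which turns the G protein off, fell by 1.26 ± 0.10 and the transcription factor STE12 fell by 0.58 ± 0.05. Of the haploid genes outside pheromone signalling, RME1, a repressor of meiosis, differed by -1.49 ± 0.06, NEJ1, which regulates DNA end joining, by -1.22 ± 0.07 and RDH54, a recombination gene, by -0.88 ± 0.07. The endonuclease gene HO (-0.38 ± 0.07) and AXL1, which cleaves the a-factor precursor and marks the haploid bud site (-0.27 ± 0.06), were at the small end. Of these 13 genes 11 were called lower within the MDY453 arrays and 13 within the MDY470 arrays, against 1.26% and 13.1% of all genes.

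**Figure D2:**
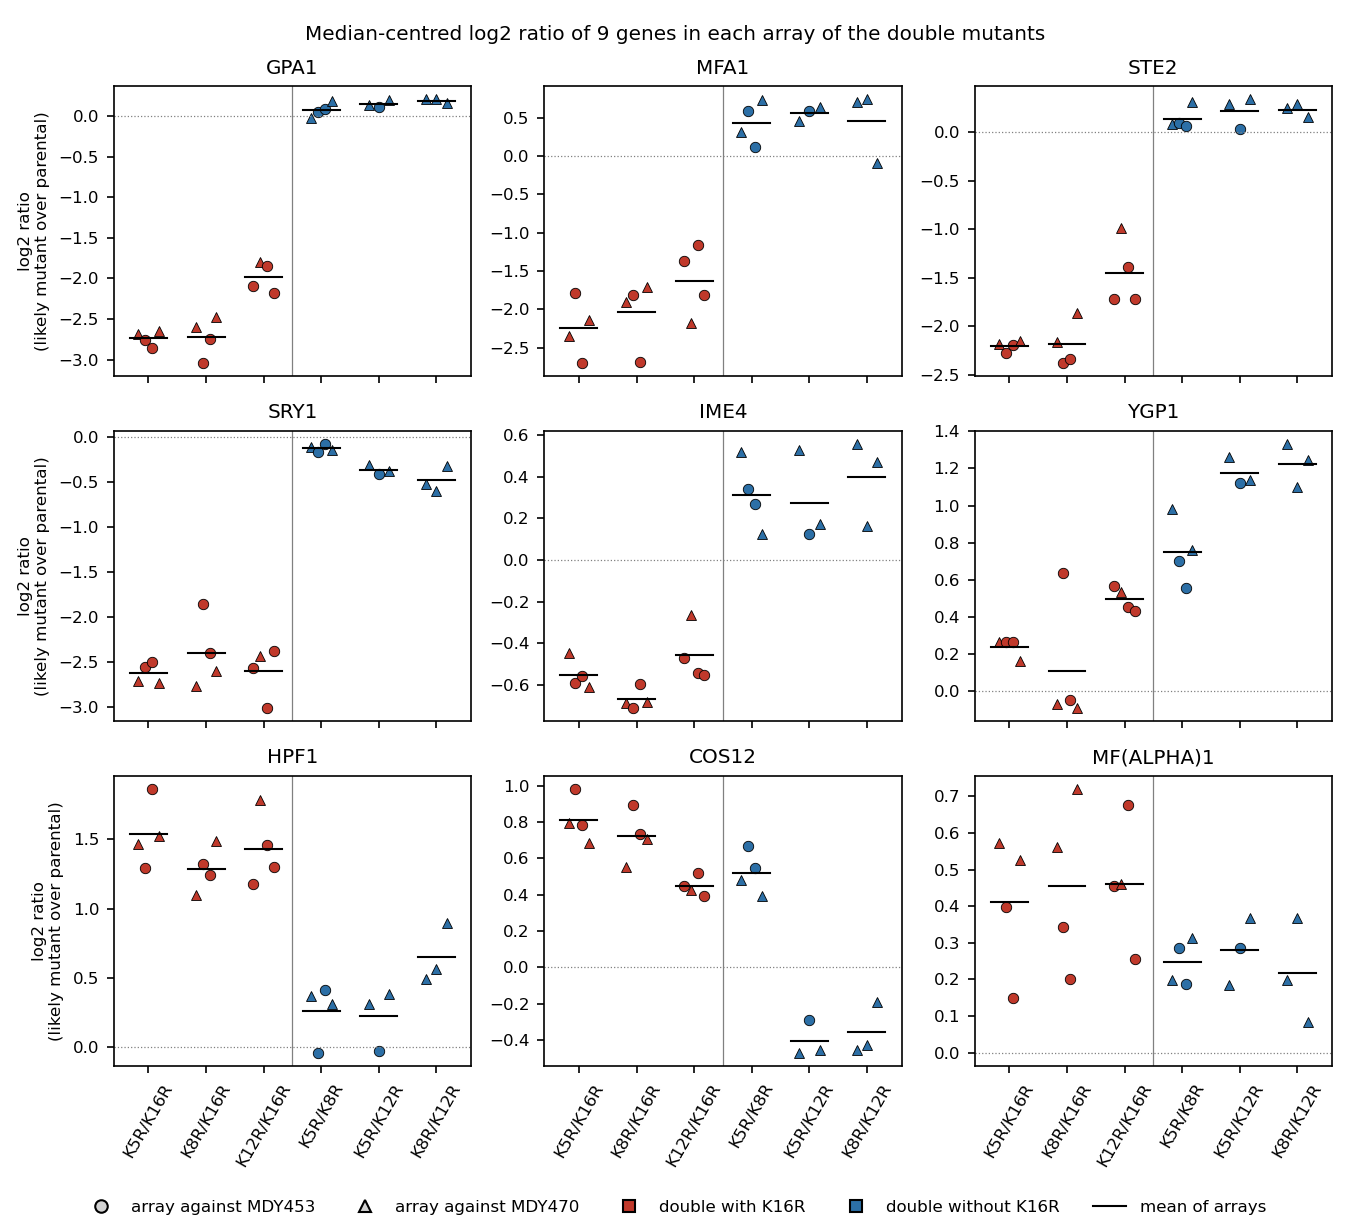
Log2 ratio of 9 genes in each of the 22 arrays, by mutant, with circles for arrays against MDY453, triangles for arrays against MDY470 and a line at the mean of each mutant. GPA1, MFA1, STE2, SRY1, IME4 and HPF1 do not overlap between the sides, whereas YGP1, COS12 and MF(ALPHA)1 do, COS12 through K5R/K8R.

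Genes that pheromone induces were lower in part. Of 14, 9 were called lower, against 6.9% of all genes, and 5 were not, with a median difference of -0.30. AGA1, the anchor of the agglutinin that AGA2 belongs to, differed by -1.13 ± 0.15, FUS1, a membrane protein of cell fusion, by -1.05 ± 0.09, and GIC2, an effector of Cdc42, by -0.65 ± 0.05. KAR5, needed for nuclear fusion, differed by -0.39 ± 0.06. The first 3 had no overlap between the sides, and KAR5 did. None of the 7 kinases and other factors that the pheromone MAP kinase cascade shares with other pathways was called in limma (2 at an unadjusted p under 0.05), and their differences lay between -0.10 and 0.13 with a median of 0.08. The MDY470 arrays alone gave 2 of these 7 higher and 1 lower, against 10.7% and 13.1% of all genes, and the MDY453 arrays none. Within the MDY453 arrays alone 2 of the 14 induced genes were called lower, and within the MDY470 arrays 10, against 1.26% and 13.1% of all genes.

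Of the 5 alpha-specific genes, the counterpart list of the other mating type, 2 were called lower and none higher (2 higher at an unadjusted p under 0.05), with a median difference of -0.17. Over all genes 6.9% were called lower and 3.09% higher. AFB1, which encodes the a-factor barrier, had a lowest, median and highest of -1.65, -1.34 and -1.11 with K16R, and of -0.85, -0.64 and -0.30 in the other doubles. It was thus below the parental level on both sides, and lower still with K16R (-0.73 ± 0.07, adjusted p = 1.37e-11). STE3, the receptor for a-factor, also fell further with K16R (-0.31 ± 0.10, adjusted p = 0.0445), but this call was lost in most fits that left out 1 array. The pheromone gene MF(ALPHA)1 stood at 0.15, 0.46 and 0.72 with K16R and at 0.08, 0.24 and 0.37 without. Its difference of 0.19 ± 0.07 did not pass (adjusted p = 0.0735). It passed without the array of MDY481 (adjusted p = 0.0435 in limma), when 1 gene of the list was called higher and 3 lower.

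The cassettes that the Sir proteins silence showed no called difference in RNA. For the 6 probes annotated to HML, HMR and MAT genes, the differences lay between -0.10 and 0.18 (median 0.06), with none called by limma and none at an unadjusted p under 0.05. HMLALPHA1, the silent copy of the alpha1 activator, had a difference of 0.15 ± 0.11 (adjusted p = 0.472) and HMLALPHA2 of 0.09 ± 0.14. HMRA1 had -0.10 ± 0.15, HMRA2 0.01 ± 0.15, MATALPHA1 0.18 ± 0.22 and MATALPHA2 0.04 ± 0.14. The cassettes and MAT share sequence, so these probes may report on more than 1 locus. Their arrays were wide, with HMLALPHA2 between -0.50 and 0.67 with K16R and between -0.70 and 0.53 without. SIR1, SIR2, SIR3 and SIR4 had differences between -0.04 and 0.05 (median 0.02), none of them called in limma or at an unadjusted p under 0.05. The 23 acetylation writers and erasers had none called in limma, 3 at an unadjusted p under 0.05, and a median difference of -0.04, and 1 was called lower without the array of MDY481. At that unadjusted threshold 496 of all 5540 genes were higher and 716 lower. The signs of HMLALPHA2, HMRA1, HMRA2, MATALPHA2 and the 4 SIR genes turned under other ways of fitting.

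The shares of called genes were set out by distance to the chromosome end, as a description with no test. Of 123 genes within 10 kb of an end 24.4% were called lower and 5.69% higher, and of 114 genes between 10 and 20 kb 27.2% and 6.14%. Between 20 and 40 kb the shares among 264 genes were 11.7% and 3.41%, and farther inside, over 5034 genes, 5.74% and 2.94%. The median difference of the 237 genes within 20 kb was -0.10, against 0.0006 over all genes, and 14 of the 237 were called higher and 61 lower. Within the MDY453 arrays 14 of these genes were called lower (1.26% of all genes tested there, and 0.108% higher). Within the MDY470 arrays it was 99 (13.1% of all genes tested, and 10.7% higher).

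SRY1, a dehydratase of 3-hydroxyaspartate, led the lower genes near ends. It stood at -3.01, -2.57 and -1.85 with K16R and at -0.60, -0.31 and -0.07 without. Every array of both sides was below 0, with a wide gap between the sides (-2.22 ± 0.11, or 4.65-fold, adjusted p = 1.18e-21). CSS3 lay between -3.32 and -2.36 with K16R and between -1.36 and -0.42 without, a difference of -2.06 ± 0.15. ARR3, an arsenite exporter, and its neighbour ARR2, an arsenate reductase, differed by -1.37 ± 0.09 and -0.99 ± 0.06 with no overlap. Among the higher genes named below, YAR068W, COS12, FET4, COS3, IMD2 and MHT1 also lie within 20 kb of an end.

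The vitamin B6 genes SNZ2, SNO2, SNZ3 and SNO3, which lie as pairs near chromosome ends, had fallen on both sides and were lower with K16R. SNZ2 lay at -2.66, -2.34 and -2.08 with K16R and at -1.20, -0.86 and -0.54 without (difference -1.44 ± 0.10). SNO2, SNZ3 and SNO3 differed by -1.35 ± 0.11, -1.26 ± 0.12 and -1.19 ± 0.10. These copies are nearly identical, so their probes may cross-hybridise and count as fewer than 4 observations. Of the 21 genes of vitamin B6 and thiamine 7 were called lower, against 6.9% of all genes. None was called higher (1 at an unadjusted p under 0.05 in limma), and the median difference was -0.10.

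The COS genes, a family of endosomal sorting proteins near the ends, were split. Of 12, 4 were called higher and 2 lower, against 3.09% and 6.9% of all genes, with a median difference of 0.14. The MDY470 arrays alone gave 8 of the 12 higher and 2 lower, against 10.7% and 13.1% of all genes. The MDY453 arrays alone gave none higher and 1 lower, against 0.108% and 1.26%. COS10 was already reduced without K16R, between -2.32 and -0.62, and reached -3.87 to -2.02 with it (-1.26 ± 0.22). COS9 differed by -0.74 ± 0.08 and COS3 by 0.26 ± 0.07. COS12 is described with the higher genes. The seripauperins, small mannoproteins whose genes also lie near ends, had none of 23 called in limma and a median difference of -0.15. At an unadjusted p under 0.05 in limma 5 of the 23 were lower, against 716 of all 5540 genes. Within the MDY470 arrays alone 21 of the 23 were called lower, and within the MDY453 arrays none was (1 at an unadjusted p under 0.05). The shares of all genes called lower there were 13.1% and 1.26%. Members of these families share sequence as well.

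HPF1, a mannoprotein of the cell wall, had the highest difference of all genes. It lay at 1.10, 1.39 and 1.86 with K16R and at -0.04, 0.38 and 0.89 without, so the sides did not overlap. Its difference was 1.05 ± 0.10, or 2.08-fold (adjusted p = 2.76e-11). YAR068W, of unknown function, stood at 0.60, 0.79 and 1.40 with K16R and at -0.41, -0.01 and 0.25 without (0.89 ± 0.10). CSS1 (0.69 ± 0.10) and NCA3, a SUN family protein (0.47 ± 0.08), were the others among the 15 highest with no overlap.

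The level of COS12, of the COS family, is given by mutant because one double without K16R lay with the other side. With K16R the means were 0.81 ± 0.12 (SD, n = 4) in K5R/K16R, 0.72 ± 0.14 (n = 4) in K8R/K16R and 0.45 ± 0.05 (n = 4) in K12R/K16R. Without K16R they were 0.52 ± 0.12 (n = 4) in K5R/K8R, but -0.41 ± 0.10 (n = 3) in K5R/K12R and -0.36 ± 0.14 (n = 3) in K8R/K12R. K5R/K8R thus stood among the doubles with K16R, and the overall difference was 0.74 ± 0.13. The limma F test among the 3 doubles without K16R did not pass for this gene (adjusted p = 0.42).

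The other higher genes were modest, and their arrays overlapped. ARG1, argininosuccinate synthetase, differed by 0.62 ± 0.10. FET4, a transporter of low-affinity iron uptake, differed by 0.62 ± 0.14, and it had fallen without K16R (lowest -1.23, median -0.73, highest -0.07). TIS11, an mRNA-binding protein of iron homeostasis, had the third highest difference (0.79 ± 0.26), but its 12 arrays with K16R reached from -0.26 to 1.57 and the other 10 from -1.15 to 0.69 (adjusted p = 0.0476). The call of TIS11 was lost in most fits that left out 1 array. SNL1, an Hsp70 cochaperone, URA1 of pyrimidine synthesis, YHR022C, the aquaporin AQY2, the kinetochore gene CTF19, PHM6 and the anaphase-promoting complex subunit CDC26 had differences from 0.38 to 0.43. In CTF19 a single array of K5R/K12R at -1.38 (replicate 3) set the lowest value, and without it the difference was 0.24 (adjusted p = 0.018 in limma).

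Many genes of the general stress response had risen on both sides, and part of them were lower with K16R than without it. Of 45, 33 were called above the parental level with K16R and 36 without, where 1373 and 1421 of all 5540 genes were. The median log2 ratios of the list were 0.28 and 0.39. Between the sides 13 were called lower with K16R and none higher (4 higher at an unadjusted p under 0.05 in limma), against 6.9% of all genes lower, and the median difference was -0.15. YGP1, a secreted glycoprotein of stationary phase, lay at -0.09, 0.27 and 0.64 with K16R and at 0.56, 1.11 and 1.33 without. A few arrays overlapped, and the difference was -0.77 ± 0.10. XBP1, a stress-induced repressor, lay between -0.24 and 0.17 with K16R (median -0.09) and between 0.19 and 0.80 without (median 0.52). Its arrays did not overlap, and it had risen in the doubles without K16R but stood near 0 in those with it (-0.59 ± 0.09).

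Reserve carbohydrate and glucose genes were also lower in part, where 6.9% of all genes were called lower and 3.09% higher. Of 19 trehalose and glycogen genes (median difference -0.12) 5 were called lower, among them the glycogen phosphorylase GPH1 (-0.71 ± 0.11), the glycogen synthases GSY2 (-0.45 ± 0.07) and GSY1 (-0.32 ± 0.06), and UGP1, which makes UDP-glucose (-0.48 ± 0.07). GSY2 lay between -0.14 and 0.33 with K16R and between 0.35 and 0.76 without. Of 26 hexose transporters and kinases (median -0.22) 9 were called lower and 1 higher. HXK1, a hexokinase of glucose-poor growth, was at 0.06, 0.44 and 1.14 with K16R and at 0.75, 1.17 and 1.55 without (-0.66 ± 0.10). HXT15 and HXT16, near-identical transporter genes, had fallen on both sides and were lower with K16R, with differences of -0.55 ± 0.11 and -0.53 ± 0.11. By mutant, HXK1 had a mean of 0.87 ± 0.23 (SD, n = 4) in K12R/K16R, 0.27 ± 0.14 (n = 4) in K5R/K16R and 0.39 ± 0.20 (n = 4) in K8R/K16R, and the F test among these mutants did not pass for it (adjusted p = 0.339 in limma). The 1 higher call of the hexose list was lost without the array of MDY481.

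The number of these calls differed between the parental references. Within the MDY453 arrays limma called none of the stress, the trehalose and glycogen or the hexose genes lower (8, 3 and 3 at an unadjusted p under 0.05), and within the MDY470 arrays it called 22, 7 and 10. Over all genes the sets held 70 and 722 lower calls, and the MDY453 set held 323 lower genes at an unadjusted p under 0.05 in limma. Chaperones of the heat shock response had 1 of 31 called in each direction, STI1 higher (0.28 ± 0.07) and SSE2 lower (-0.38 ± 0.07), with a median difference of 0.08. The MDY470 arrays alone gave 16 higher, where 10.7% of all genes were higher. With the array of MDY481 left out, 3 of the chaperones and 1 of the stress genes were called higher.

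Part of the cell wall and daughter cell genes was lower with K16R. Of 48 cell wall genes (median difference -0.10) 15 were called lower and 1, HPF1, higher (2 higher without the array of MDY481). For this and the next lists, 6.9% of all genes were lower and 3.09% higher. The mannoprotein genes CWP1 (-0.55 ± 0.07) and CCW12 (-0.40 ± 0.06) and the glucanase-like gene SCW4 (-0.48 ± 0.07) had risen without K16R, to means of 0.70, 0.60 and 0.56, and had means of 0.15, 0.20 and 0.09 with it. Of 15 genes that daughter cells express to separate from the mother 8 were called lower (median -0.195), 3 within the MDY453 arrays and 10 within the MDY470 arrays. The shares of lower calls over all genes were 6.9%, 1.26% and 13.1% in the same order. AMN1, which delays mitotic exit in daughters, lay at -0.98, -0.60 and -0.10 with K16R and at 0.12, 0.25 and 0.53 without. The sides were apart and on opposite sides of the parental level, with a difference of -0.85 ± 0.07. CTS1, the chitinase that frees the daughter, differed by -0.59 ± 0.07, NIS1 by -0.55 ± 0.06 and DSE2 by -0.27 ± 0.07. Of 19 genes of the G2/M phase (median -0.10) 6 were called lower, including FRK1 (-0.47 ± 0.05), WSC4 (-0.46 ± 0.08), CDC20, which activates the anaphase-promoting complex (-0.33 ± 0.04), and SWI5, a regulator of daughter genes (-0.30 ± 0.07). CDC20 and FRK1 had no overlap. How far cell cycle stage differed between cultures was not tested.

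Of 52 meiosis and sporulation genes 12 were called lower and 2 higher, against 6.9% and 3.09% of all genes, with a median difference of -0.01. These counts were 14 and 7 without the array of MDY481, when 506 genes were called lower and 236 higher over all genes. Of the 52, 3 were called lower within the MDY453 arrays and 14 within the MDY470 arrays, against 1.26% and 13.1% of all genes. IME4, an mRNA adenosine methyltransferase needed for meiosis, lay at -0.71, -0.58 and -0.27 with K16R and at 0.12, 0.31 and 0.56 without. It was thus below the parental level on one side and above it on the other (-0.88 ± 0.07, adjusted p = 1.48e-14). GAS2, a spore wall enzyme, differed by -0.68 ± 0.06 without overlap, and SSP1, needed for the prospore membrane, by -0.48 ± 0.08. CDA1, a chitin deacetylase of the spore wall, differed by -0.28 ± 0.06. IME4 has an antisense transcript, and the sources used here do not say whether the probes tell the strands apart.

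Genes of amino acid synthesis were higher with K16R in part. Of 53 genes of amino acid synthesis outside arginine and sulfur (median difference 0.0965) 12 were called higher and none lower (none at an unadjusted p under 0.05 in limma), against 3.09% of all genes higher. ASN1, an asparagine synthetase, lay between 0.02 and 0.53 with K16R and between -0.22 and 0.00 without (0.34 ± 0.06). The homocitrate synthases LYS20 and LYS21 differed by 0.32 ± 0.09 and 0.29 ± 0.07. Of 20 purine genes (median 0.01) 3 were called higher, the IMP dehydrogenases IMD4 (0.30 ± 0.09), IMD2 (0.28 ± 0.06) and IMD3 (0.24 ± 0.07), which are close in sequence. The difference of IMD4 was 0.19 without the array of MDY481 (adjusted p = 0.028 in limma). Among the 17 arginine and proline genes (median -0.0012) ARG1 and ORT1 were higher (ORT1 0.23 ± 0.07) and ARG4 lower (-0.26 ± 0.07), with 2 lower without the array of MDY481. Within the MDY453 arrays limma called none of the 53 amino acid genes higher (2 at an unadjusted p under 0.05), and within the MDY470 arrays 20. Of all genes 0.108% and 10.7% were higher in these sets.

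A part of the ribosome assembly factors was higher with K16R than without it. Of 104, 62 were called below the parental level without K16R and 16 with it, where 1425 and 1367 of all 5540 genes were. The median log2 ratios of the list were -0.13 and -0.01. Between the sides 10 were called higher, against 3.09% of all genes, and 1 lower, with a median difference of 0.12. At an unadjusted p under 0.05 in limma 42 of the 104 were higher, against 496 of all 5540 genes. Of the 104, the MDY453 arrays alone gave no higher call in limma (2 at an unadjusted p under 0.05), and the MDY470 arrays alone 29. Of all genes 10.7% were higher within the MDY470 arrays. RRP5, which serves both subunits, differed by 0.24 ± 0.07, BMS1, a GTPase of the small subunit, by 0.18 ± 0.05, and DBP9, a helicase, by 0.16 ± 0.05. TSR2 was the lower one (-0.16 ± 0.05). Of 134 cytosolic ribosomal protein genes (median 0.04) 1 was called higher (RPS6A, 0.16 ± 0.05) and 1 lower (RPL43B, -0.28 ± 0.06). The one called gene among 20 for RNA polymerases I and III (median 0.12) was RPC17, with a difference of 0.27 ± 0.07. With that of MDY481 left out, 3 of the 134 ribosomal protein genes and 2 of the 20 polymerase genes were called higher.

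The remaining lists held few calls. The 2 genes of histone H4, HHF1 and HHF2, were called lower with K16R (-0.29 ± 0.08 and -0.26 ± 0.08), and the other 9 histone genes were not called (median of the 11 -0.12). At an unadjusted p under 0.05 in limma 5 of the 11 were lower, against 716 of all 5540 genes. For these 11, the MDY453 arrays alone gave no lower call in limma (2 at an unadjusted p under 0.05) and the MDY470 arrays 7. Of all genes, 13.1% were lower within the MDY470 arrays. HHF1 lay at -0.41, -0.04 and 0.32 with K16R and at 0.12, 0.24 and 0.61 without, so it was the doubles without K16R that stood above the parents. The sources used here do not say whether these probes also report on the mutant H4 gene. Phosphate genes had 3 of 25 called in each direction (median 0.01), where 3.09% of all genes were higher and 6.9% lower. PHO81, an inhibitor of the Pho85 kinase, was higher (0.36 ± 0.08), and the phosphatases PHM8 (-0.38 ± 0.06) and PHO3 (-0.35 ± 0.07) were lower.

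Sulfur and methionine genes had 2 of 30 called in each direction (median 0.08), with MUP3 (0.27 ± 0.07) and MHT1 (0.19 ± 0.05) higher and the sulfate permease SUL1 (-0.35 ± 0.06) and STR3 (-0.27 ± 0.05) lower. In NAD synthesis BNA1 (-0.35 ± 0.07) and the nicotinamidase PNC1 (-0.30 ± 0.08) were the 2 of 13 called, both lower (median of the list -0.04). Oxidative phosphorylation (median -0.09) had 2 of 38 lower, COX5B (-0.34 ± 0.07) and ATP3 (-0.21 ± 0.06), and the citric acid and glyoxylate list (median -0.03) 3 of 25 (IDP3 0.23 ± 0.05, ICL2 0.17 ± 0.05 and LSC2 -0.30 ± 0.07). None of 17 inositol and phospholipid genes (median -0.01) and none of 33 proteasome genes (median -0.02) was called in limma, with 2 of each list at an unadjusted p under 0.05. When the array of MDY481 was left out, 7 oxidative phosphorylation genes, 5 citric acid and glyoxylate genes and 1 inositol and phospholipid gene were called lower. Over all genes 506 were called lower in that fit, against 382 (6.9%) in the fit of all arrays. For oxidative phosphorylation and the citric acid and glyoxylate list limma called none lower within the MDY453 arrays (1 of each at an unadjusted p under 0.05), and 12 and 3 within the MDY470 arrays. The shares of all genes called lower in these sets were 1.26% and 13.1%.

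**Figure D3:**
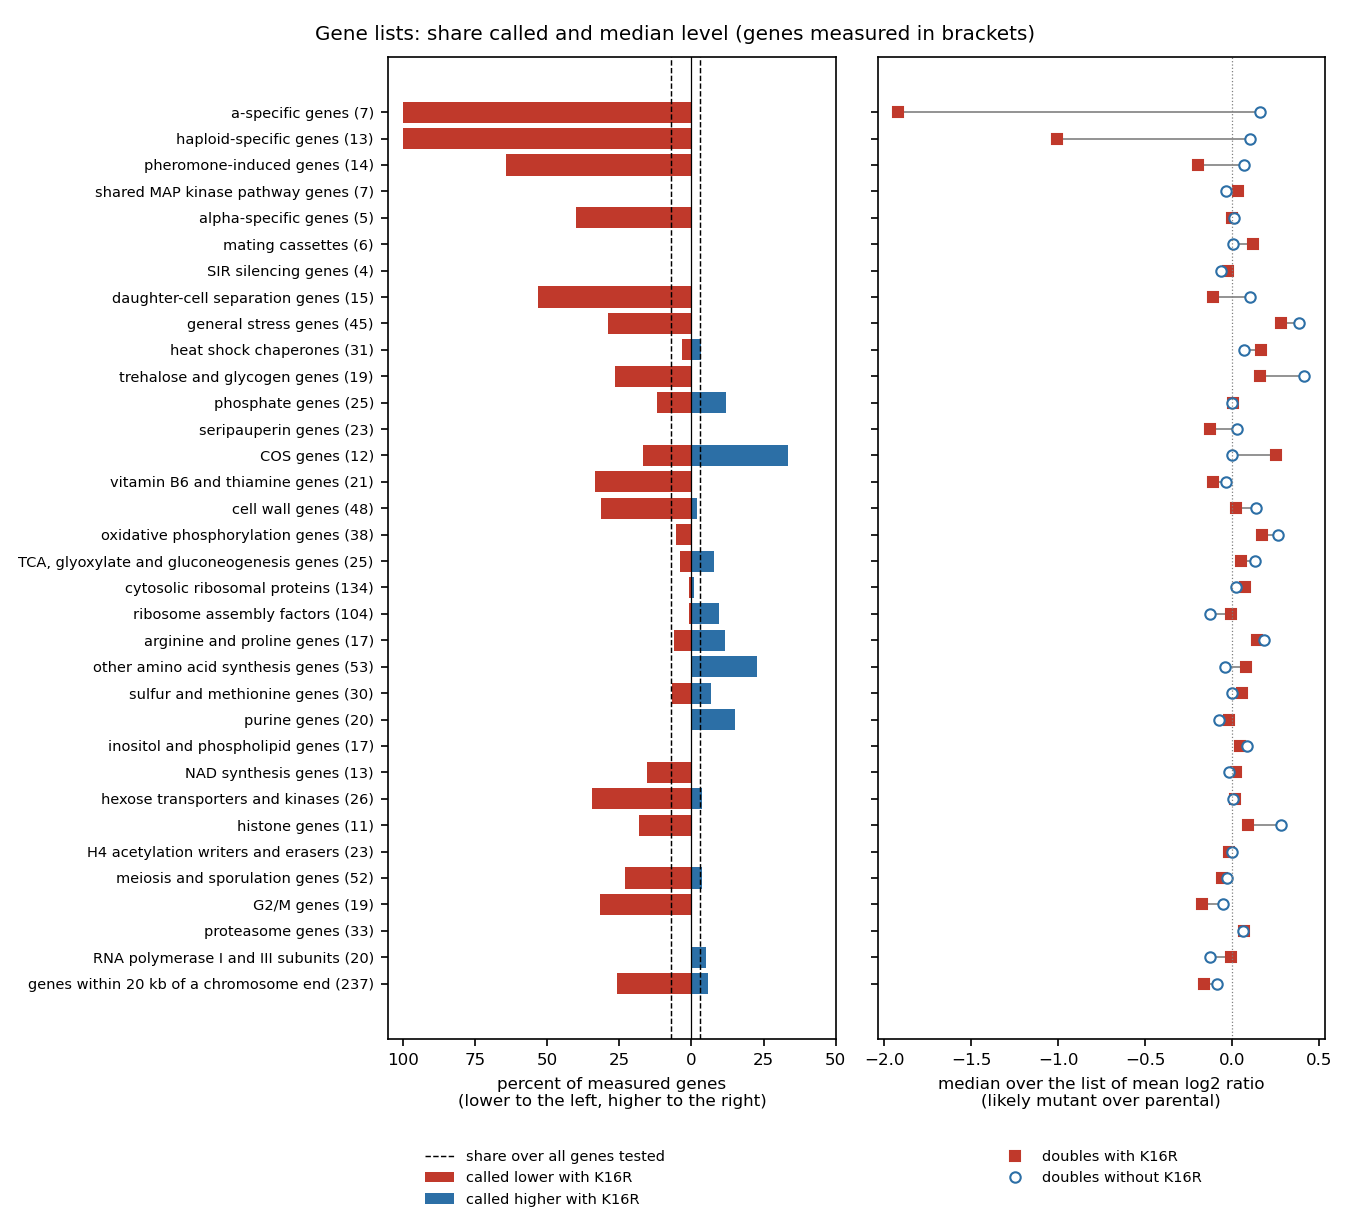
Left, the percentage of each list's measured genes called lower (red) or higher (blue) with K16R, with dashed lines at the shares over all genes (6.9% and 3.09%); right, the list's median log2 ratio in the doubles with K16R (squares) and without (circles). The a-specific and haploid-specific lists reach 100% lower and are the ones with medians more than 1 apart.

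The doubles with K16R had the larger SD of log2 ratios over genes. The SD over genes per strain was 0.286 ± 0.0556 (SD over 6 strains) with K16R and 0.226 ± 0.0308 (5 strains) without. The difference of 0.0596 was past 0.05 in a two-sided exact permutation test over strains (p = 0.00866, smallest possible 0.00433), and without MDY481 it was 0.037 (exact p = 0.0159). The test treats strains of the same mutant as independent, and a strain's SD came from 1 to 3 arrays. The K5R/K8R strains had SDs of 0.190 and 0.197, and the other strains without K16R 0.242 to 0.259. With K16R the strains other than MDY481 had 0.254 to 0.270, so outside K5R/K8R the sides overlapped. The 3 strains with K16R against 2 without in the MDY453 set, and 3 against 3 in the MDY470 set, gave exact p of 0.4 and 0.1, where the smallest possible were 0.2 and 0.1. The median absolute deviation, which a few extreme genes do not move, was 0.134 ± 0.048 and 0.130 ± 0.0159 (exact permutation p = 0.957).

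The 3 doubles with K16R differed from each other in few genes, and in each of these K12R/K16R had the highest or lowest mean. The F test among them called 6 of 5540 genes in limma (0.108%), while 254 had an unadjusted p under 0.05. GPA1 had means of -2.74 ± 0.10 in K5R/K16R, -2.72 ± 0.24 in K8R/K16R and -1.98 ± 0.18 in K12R/K16R (SD, n = 4 each, adjusted p = 0.000454). In the same order STE2 had -2.20 ± 0.05, -2.18 ± 0.24 and -1.45 ± 0.35 (adjusted p = 0.00217), and BAR1 had -2.19 ± 0.05, -2.15 ± 0.24 and -1.46 ± 0.34 (adjusted p = 0.0179). These 3 mating genes had negative means in K12R/K16R too, closer to 0 than in both others. The F test without the array of MDY481 no longer called STE2 (adjusted p = 0.0688) or BAR1 (0.336), while GPA1 kept its call.

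BNA5, kynureninase of NAD synthesis, and DAL4, the allantoin permease, went the other way. BNA5 was at -0.29 ± 0.11, -0.12 ± 0.09 and -0.71 ± 0.11 (n = 4 each, adjusted p = 0.00129), and DAL4 at -0.83 ± 0.10, -0.60 ± 0.24 and -1.16 ± 0.10 (adjusted p = 0.0145). The sixth gene was YDR541C, named after its values were seen, at -0.28 ± 0.05, -0.40 ± 0.08 and -0.95 ± 0.14 (adjusted p = 0.0212). Without the array of MDY481, K12R/K16R rested on the 3 arrays of MDY464, and 4 genes were called: BNA5 (adjusted p = 0.000202), GPA1 (0.00322), and DFP4 and MFA2 (0.036 each), the last 2 of which were named after their values were seen. DAL4 and YDR541C were then at 0.0591 each. K12R/K16R had 3 of its 4 arrays against MDY453, the other doubles with K16R 2 of 4.

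Among the 3 doubles without K16R no gene passed in limma (0.0%), and 132 had an unadjusted p under 0.05. The smallest p-values belonged to BNA5, YIR042C, AVO2, HFM1 and COS12. BNA5 stood at 0.03 ± 0.04 in K5R/K8R (SD, n = 4) and at -0.38 ± 0.16 and -0.42 ± 0.09 in K5R/K12R and K8R/K12R (n = 3 each). AVO2, a subunit of TOR complex 2, was at 0.37 ± 0.08 (n = 3) in K5R/K12R and at 0.08 ± 0.05 and 0.02 ± 0.06 in the others. Without the array of MDY481, which is on the other side but enters the shared estimate of spread, BNA5 was called (adjusted p = 0.0253).

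The K16R difference was also taken for each substitution that both sides carry, as the double with K16R minus the mean of the 2 doubles without it that share K5R, K8R or K12R. For GPA1 it was -2.84 ± 0.11 for K5R, -2.85 ± 0.11 for K8R and -2.13 ± 0.12 for K12R (SE). GPA1 was the single gene of 5540 (0.0181%) that passed the F test of these differences (adjusted p = 0.0223 in limma, with 166 genes at an unadjusted p under 0.05). Without the array of MDY481 it was not called (adjusted p = 0.149). STE2 had -2.37 ± 0.13, -2.37 ± 0.13 and -1.63 ± 0.14. For each of the 15 lowest genes the K12R value was the smallest in size but for SRY1, where it lay between the others.

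**Figure D4:**
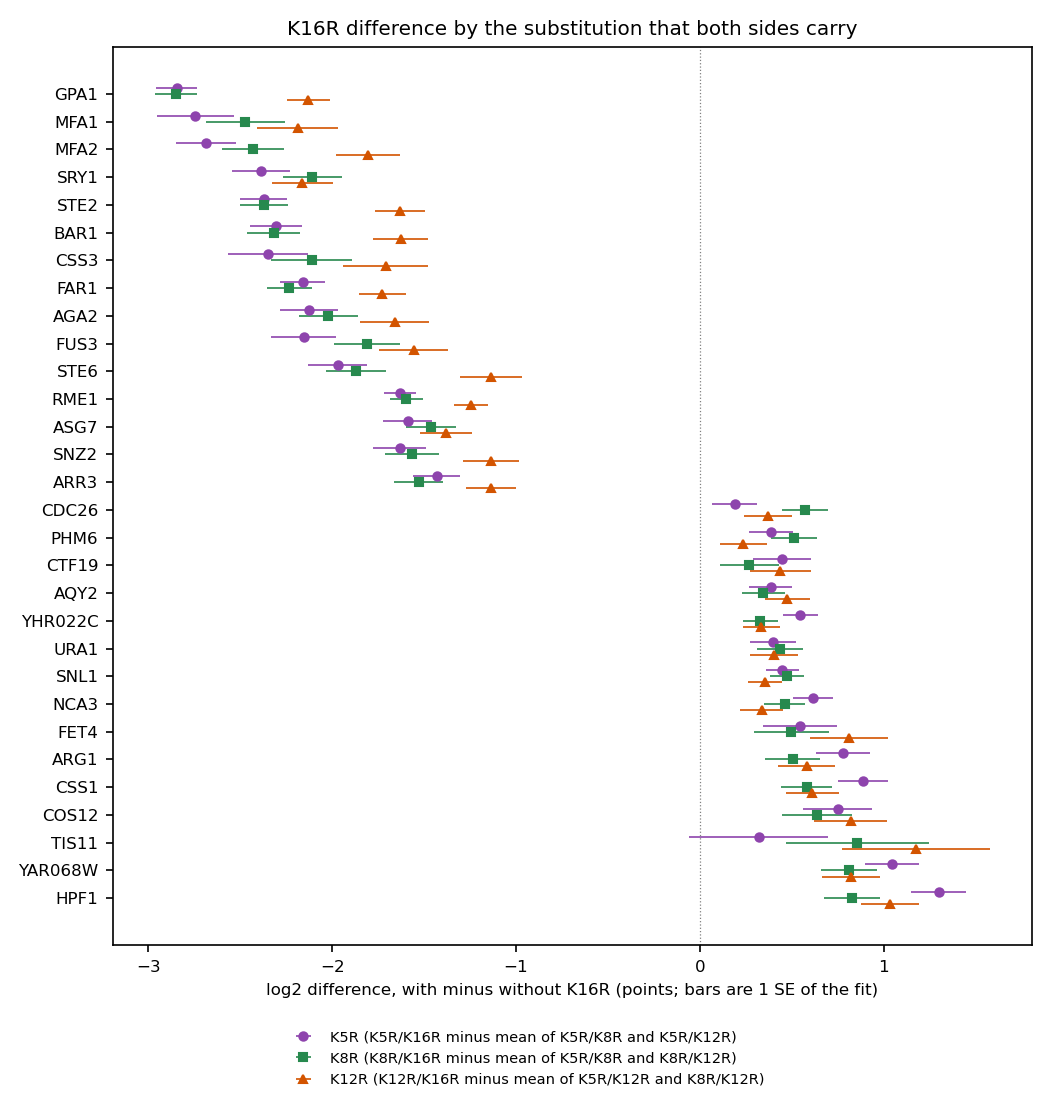
Log2 difference between doubles with and without K16R, computed separately for the doubles that share K5R (circles), K8R (squares) or K12R (triangles), for the 15 lowest and 15 highest genes, with bars of 1 SE of the fit. Triangles lie to the right of the other symbols for GPA1, STE2, BAR1 and STE6.

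At 1 substitution the same contrast is the K16R single mutant against the mean of the K5R, K8R and K12R singles. At 3 it is the mean of the triples with K16R against K5R/K8R/K12R. Of 5540 genes 1 (0.0181%) differed between 2 and 1 substitutions in limma, and 310 had an unadjusted p under 0.05. That gene was YOL163W, with a difference of -0.90 ± 0.10 at 1 and -0.23 ± 0.07 at 2 (adjusted p = 0.0115). GPA1 had -3.01 ± 0.11 and -2.61 ± 0.08, and NEJ1 -1.70 ± 0.10 and -1.22 ± 0.07, and neither passed. RPS14A, SCS2 and NUP116 were also among the 6 smallest p-values.

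Between 2 and 3 substitutions 55 genes differed (0.993%), 39 with a positive and 16 with a negative change, and 516 had an unadjusted p under 0.05. Without the array of MDY481 the count was 124. NEJ1 was lower by 0.64 at 2 than at 3, with -1.22 ± 0.07 against -0.59 ± 0.09. The other genes of smallest p had the larger loss at 3. YKL222C had -0.35 ± 0.09 at 2 and -1.49 ± 0.12 at 3, MFA2 had -2.31 ± 0.12 and -3.42 ± 0.15, and RTN2, a reticulon, had -0.06 ± 0.06 and -0.68 ± 0.08. MF(ALPHA)1 changed sides, from 0.19 ± 0.07 at 2 to -0.54 ± 0.09 at 3. HBT1 had -0.05 ± 0.04 and -0.46 ± 0.06. The contrast at 3 substitutions has a single mutant on the side without K16R, as the contrast at 1 has a single mutant on the side with it. Both therefore rest on fewer strains than the contrast of doubles.

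**Figure D5:**
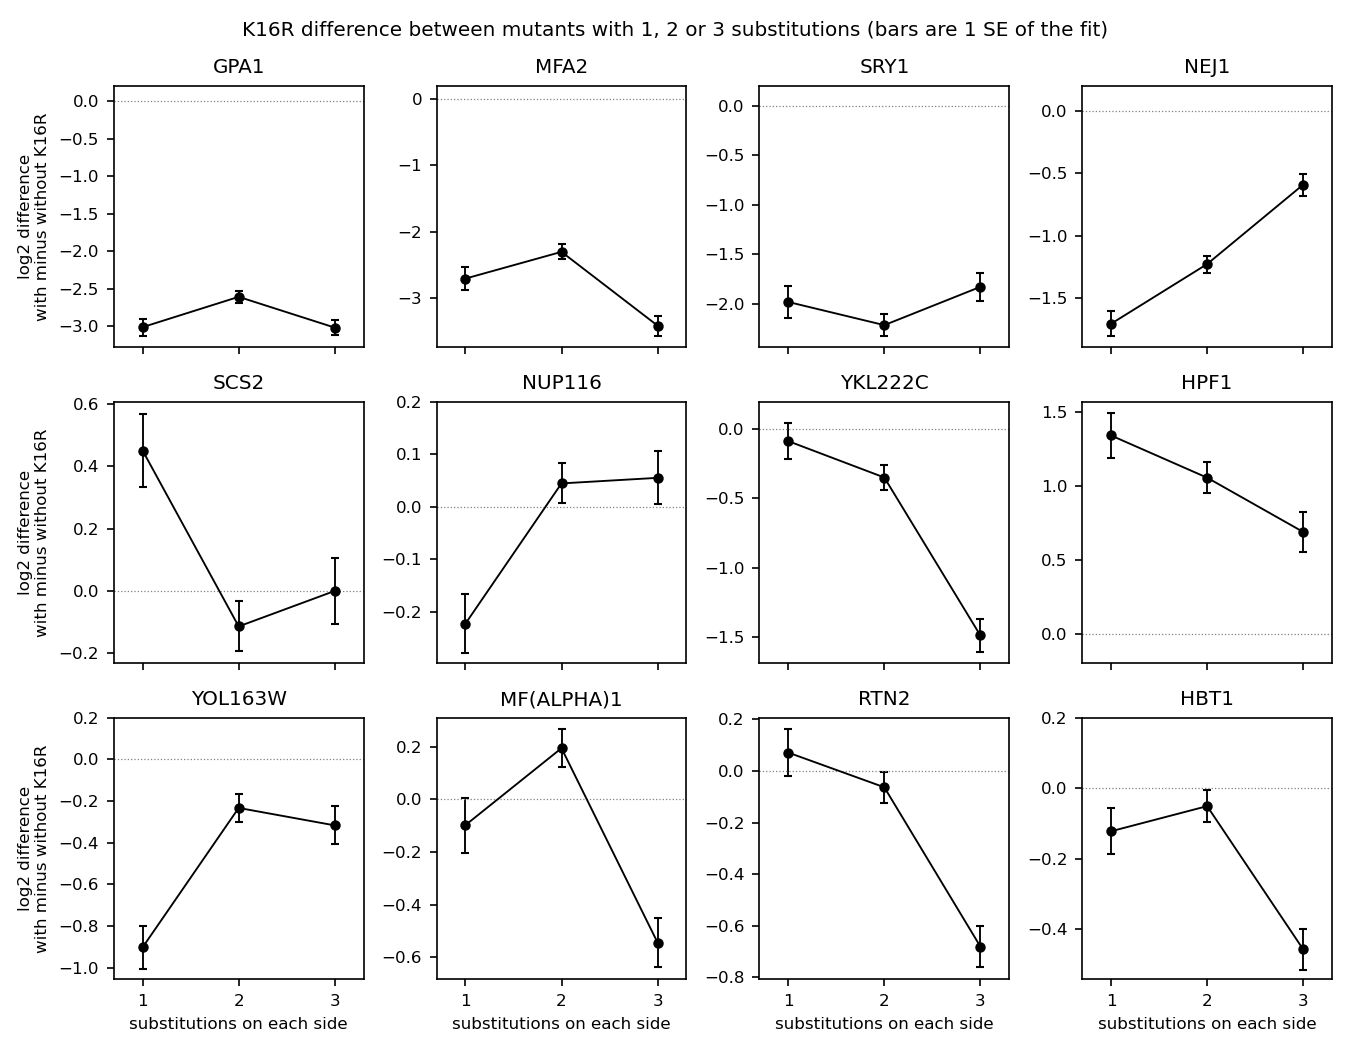
Log2 difference between mutants with and without K16R at 1, 2 and 3 substitutions for 12 genes, with bars of 1 SE of the fit. GPA1, MFA2 and SRY1 stay far below 0 throughout, the loss of NEJ1 shrinks from -1.70 to -0.59, and YKL222C, MF(ALPHA)1, RTN2 and HBT1 drop at 3.

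The sides were also compared within each parental reference. With MDY453 alone 6 genes were called higher and 70 lower, 75 of these 76 also called over all arrays. With MDY470 alone 592 were higher and 722 lower, 485 of these 1314 also called over all arrays. Each set held fewer arrays, and the MDY453 set no K8R/K12R. Within a set each double was 1 strain, so strain and mutant cannot be told apart there. The counts of calls are therefore not directly comparable between the sets or with the fit of all arrays. All 547 called genes that could be fitted in both sets had the same sign in each as over all arrays, which the calls themselves used. A test of whether the difference itself depended on the reference, over the mutants measured against both, called 1 of 5505 genes, YKR104W (-0.18 with MDY453 and 0.72 with MDY470, adjusted p = 0.00724 in limma), with 56 genes at an unadjusted p under 0.05. YKR104W was at 2.10 in the array of MDY481. GPA1 had differences of -2.67 and -2.46 and SRY1 of -2.17 and -2.38 in the 2 sets.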

How the data were processed

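The authors deposited 1 table of log2 ratios per probe and array. Base 2 was inferred from the largest size, 6.64, the log2 of a ratio of 100. The sources used here do not give dyes, direction, background correction, normalization or intensities, so the number of arrays limits the precision. Of 6720 probes 5570 name 1 gene, 5565 matched the R64 table (names and distance to chromosome ends only), and averaging gave 5540 genes. Values at the ratio limit were treated as missing. Each array was centred on its median, and a technical pair elsewhere in the series was averaged (54 samples). All mutants entered 1 limma fit across all genes (limma 3.58.1, R 4.3.3), with a mean per mutant and strain as a random block (correlation 0.205), two-sided, with Benjamini-Hochberg adjustment at 0.05 over 5540 genes. Every adjusted p is from limma. Single values per strain were compared by exact permutation tests (SciPy 1.17.1). Scripts were tested on simulated data. Of called genes whose sign agreed in 8 or all 9 mutant pairs, the 15 highest and 15 lowest were named. So were the 5 smallest p of each F test, the 6 smallest of each difference between numbers of substitutions, up to 4 called members of each of 34 lists, and all cassette, SIR and H4 genes. The members, lists and tests were chosen with earlier results of these data known.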

Additional observations from a re-analysis of the deposited data

Results flagged for a closer look

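In 30 of 508 groups of 4 arrays of 1 mutant, for the genes named, 1 array lay far from the other 3 by Dixon's gap test, while chance gives about 1 in 20. The value is that of the single array. In K12R/K16R, 5 of these were in replicate 2, the array of MDY481: SNL1 at -0.27, RPS14A at -0.39, RRP5 at 0.50, HIS6 at -0.45 and YKR104W at 2.10. Other arrays of K12R/K16R stood apart for YAR068W (1.05), RME1 (-1.08), GIC2 (-0.01), GSY1 (0.52) and RPC17 (0.11). In K5R/K16R it was CSS1 (0.86), PHM6 (0.59), YIR042C (-1.15), GSY2 (-0.14) and SSE2 (-0.39) in replicate 2, RPC17 (-0.16) in replicate 3 and YGP1 (0.16) in replicate 4. In K8R/K16R it was AQY2 (0.11) and YGP1 (0.64) in replicate 2, STE3 (-0.28) and SNZ3 (-1.63) in replicate 3, and NEJ1 (-1.56) and LSC2 (-0.59) in replicate 4. In K5R/K8R it was YAR068W (-0.41) and YKL222C (-0.36) in replicate 2, PHM6 (-0.10) and YKR104W (-0.16) in replicate 3, and STE2 (0.31), KAR5 (0.26) and UGP1 (0.18) in replicate 4.

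For some genes the K16R difference itself depended on the other substitutions by a limma test of that dependence. The difference at 2 substitutions minus that at 1 was 0.67 for YOL163W, whose loss with K16R was smaller at 2. The difference at 2 minus that at 3 was 1.14 for YKL222C, 1.11 for MFA2, 0.64 for BAR1, 0.62 for RTN2 and 0.41 for HBT1. These genes had the smaller loss at 2. It was 1.09 for COS12, 0.74 for MF(ALPHA)1 and 0.43 for COS3, which were higher with K16R at 2 and lower at 3. It was -0.73 for SNZ3, -0.68 for SNZ2, -0.64 for NEJ1, -0.57 for WSC4 and -0.53 for PHM6. GPA1 depended on which substitution the doubles share (adjusted p = 0.0223), and YKR104W on the parental reference, by -0.90 between the MDY453 and MDY470 sets. Without the array of MDY481, and so without K12R/K16R, the latter was -0.24 and not called (adjusted p = 1 in limma).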

How the results depend on the processing

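The direction of all 109 named genes that were called held under every alternative that gave a value. These genes were chosen for their calls, and the alternatives reuse the same arrays, so a kept direction is no independent check. The count of called genes moved with the error model: 885 (322 higher) with no strain block, 297 (70 higher, 227 lower) with arrays averaged per strain, 1205 (486 and 719) with arrays scaled to the same spread and 1079 (448 and 631) in an additive site model. It was 76 (6 and 70) with arrays against MDY453 alone, where 71 of the 109 lost their call, and 1314 (592 and 722) with those against MDY470 alone. Without centring the 553 calls split into 232 higher and 321 lower. Leaving out 1 array at a time gave 476 to 742, and BMS1, DBP9, HHF1, HHF2, ICL2, ORT1, STE3, TIS11 and TSR2 each lost their call in at least 1 of these fits, while MF(ALPHA)1 was called in 5 of them. STE3 and TIS11 lost theirs in most of these fits, and ORT1 and DBP9 in several. Titles of 13 arrays of the series, 3 of the doubles with K16R and 2 without among them, end in a tag, (s), whose meaning the labels do not give. With the tag as a covariate, chosen after seeing the data, 569 genes were called, 550 of them among the 553. Without the tagged arrays it was 275 (54 higher and 221 lower), and 22 of the 109 named genes lost their call. Within the 5 tagged arrays alone, which are part of the fit of all, GPA1 differed by -2.63 and HPF1 by 1.39. The causes were not tested. The single-reference sets hold fewer arrays and 1 strain of each double, so strain and mutant cannot be told apart there. Their counts of calls are therefore not directly comparable with each other or with the fit of all arrays. Among the doubles with K16R 16 genes were called with no strain block and 10 with the reference as a covariate. Among those without it 1 was called with no strain block and 1 when an array was left out. For the shared substitution both fits gave 2, and leaving out the array of MDY481 gave 0. For 2 against 1 substitutions the covariate gave 2, and for 2 against 3 the fit with no strain block gave 167 and that without the array of MDY481 gave 124. The SD difference was 0.036 for MDY453 strains, 0.0838 for MDY470 strains and 0.0043 as a median absolute deviation, none past the threshold.

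Genes that were not called, or cassettes and SIR genes near 0, changed sign. The additive site model gave 0.0043 for BNA5, 0.108 for RPS14A, 0.0474 for SCS2, -0.0101 for NUP116, -0.087 for MF(ALPHA)1, -0.0075 for HMLALPHA2, -0.008 for HMRA2, -0.0149 for MATALPHA2 and 0.0501 for SIR1. With MDY453 alone RTN2 was 0.020, HMLALPHA2 -0.0985, HMRA2 -0.1329, MATALPHA2 -0.1729, SIR2 -0.1697 and SIR4 -0.0048. With MDY470 alone HMRA2 was -0.1114, SIR1 0.0747 and SIR3 0.0458. Without K8R/K12R RTN2 was 0.0168, HMLALPHA2 -0.0124, HMRA2 -0.080, MATALPHA2 -0.0786 and SIR2 -0.1278. Averaged per strain HMRA2 was -0.0625, MATALPHA2 -0.0111 and SIR1 0.0. With the covariate HMRA2 was -0.020 and SIR2 -0.0318, and without centring SIR1 was 0.0059. Leaving out 1 array gave -0.0797 to 0.0023 for RPS14A, -0.1849 to 0.0103 for HMRA1, -0.0633 to 0.1251 for HMRA2, -0.0524 to 0.1141 for MATALPHA2 and -0.0489 to 0.0205 for SIR1.

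No paired analysis was possible because the replicate numbers only count arrays of a mutant, and nothing in the labels ties the same number, or the tag, to a shared culture or day. Signal over background is not given in the sources used here, so dim probes could not be set apart.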

Other observations

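Of the 553 called genes, 337 were in none of the 34 lists. YIR042C is on the list of genes within 20 kb of a chromosome end. It lay at -2.01, -1.66 and -1.15 with K16R (lowest, median and highest of 12 arrays) and at -0.90, -0.74 and -0.23 without (10 arrays). It had no overlap between the sides and a difference of -0.95 ± 0.09. DAL4, the allantoin permease, differed by -0.49 ± 0.06 and HFM1, a meiotic helicase, by -0.39 ± 0.06, both with overlapping arrays.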
